A study of Mus musculus with 9 samples.

Results

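The genes described here are those of the mitochondrial protein import machinery whose symbols begin with Timm or Tomm, the translocases of the inner and outer mitochondrial membranes. They were taken as every protein-coding row of the deposited gene table with a symbol of Timm or Tomm followed by a digit, which gave 25 genes of 54532 rows. The rule used names and gene type only, and no measured value. RNA sequencing covered right ventricular myocardium of wild-type C57BL/6 mice, with 3 libraries in each of 3 groups. The Sham group had a control operation. The VO (volume overload) group had fistula surgery, which sends extra blood through the heart. The CsA group had the same fistula surgery plus cyclosporin A, an inhibitor of the phosphatase calcineurin that also binds cyclophilins. All 9 libraries carry the label postnatal day 7, the age at which the operation was done, and the sources used here do not give the age at harvest. Input was 1 µg of RNA per library. The labels do not tie each library to a separate mouse, so the p-values reflect variation among these samples only, and this could be technical.

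Nearly all mitochondrial proteins are encoded in the nucleus, made in the cytosol and carried across the mitochondrial membranes. Receptors of the TOM complex recognise the incoming proteins and pass them to the Tom40 channel. Proteins with a cleavable presequence then go through the TIM23 complex and its motor, while carriers and other multi-span proteins are escorted by small Tim chaperones to the TIM22 complex. The heart muscle cell is packed with mitochondria, and the weeks after birth are a time when they multiply and mature.

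The letters before the start site of a pair of these genes are shown because Tomm70a and Timm13 were the members that passed the test when 1 VO library was left out, in opposite directions. Promoter windows of 250 bases before to 50 after the start were available from RefSeq (GRCm38.p6) for 22 of the 25 members. A core of the binding motif of NRF1, a regulator of nuclear genes for mitochondrial proteins, was searched as GCGCATGCG on both strands. It was found for 1 of the 22 members, Timm13, and for 1.95% of 27025 genes with such windows genome-wide. A core of the GABP (NRF2) motif, CCGGAAGT on both strands, was added after the NRF1 search. It was found for 6 of the 22 (Timm10, Timm10b, Timm23, Timm29, Timm8a2 and Tomm70a) and for 4.31% of all these genes. The matches of Timm10 and Timm10b did not lie wholly before the start. The motif letters are in capitals, and both windows lie outside annotated exons, on the gene's own strand. The Timm13 window is chr10:80901138-80901178 on the minus strand and the Tomm70a window is chr16:57121618-57121657 on the plus strand, both in GRCm38.p6. A match is a description of the letters, not a binding site.
Timm13: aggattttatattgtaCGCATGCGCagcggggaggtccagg
Tomm70a: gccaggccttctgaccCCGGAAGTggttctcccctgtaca

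Values are FPKM, fragment counts divided by gene length and library size. Fold changes are on the log2(FPKM + 1) scale, which understates the change of low genes, and come from limma over the 13477 genes whose mean reached 0.5 FPKM, with Benjamini-Hochberg adjustment at 0.05. The libraries held 12046288 to 15986747 fragments assigned to genes. VO 3 stood apart from the other 8: mitochondrially encoded genes took 11.01% of its fragments against 22.18% to 26.34%, and it had 17003 genes above 0 against 19619 to 20479. Its summed red-cell markers were at 2038 FPKM against 591.4 to 1039, and its summed endothelial markers at 620.7 against 278.3 to 427.6 FPKM, with no marker of these 2 lists at 0. That endothelial sum was high through Fabp4 (455.8 FPKM against 110.7 to 174.7), while Cdh5, Pecam1 and Tie1 were lower in every VO library than in any Sham or CsA library and Kdr overlapped. Cdh5, for example, was at 57.8, 74.0 and 53.7 FPKM in VO and at no less than 93.0 elsewhere. The 7 ventricular markers summed to 9595 to 15910 FPKM in every library and did not share a direction. Myh6, the main heavy chain of mouse heart muscle, was at 905.3 to 1205 FPKM in VO against 2048 to 2576 in Sham and 1511 to 2313 in CsA. Ryr2 was lower in VO (40.4 to 59.5 FPKM) than in Sham (62.6 to 79.0) and overlapped CsA (49.8 to 73.1). Actc1, Myl3, Myl2, Pln and Tnnt2 overlapped between VO and both other groups. Actc1, Myl3, Myl2 and Pln were highest in VO 3. Of the 5 smooth muscle and pericyte markers, Pdgfrb and Myh11 were also lower in every VO library than elsewhere (11.3 to 16.1 FPKM against at least 19.2, and 2.86 to 4.79 against at least 5.17). The rest of that list overlapped. Rgs5 was at 109.6 to 292 FPKM in VO and 243.4 to 318.7 elsewhere, and Acta2 at 230.1 to 572.9 in VO and 325.7 to 698.1 elsewhere. Tagln, under 1 FPKM throughout, was highest in VO 3. By contrast, the 6 atrial markers summed to 569.5, 7.91 and 595.9 FPKM in Sham, 17.1, 9.83 and 9.78 in VO and 27.9, 7.23 and 149.2 in CsA. Of the 4 skeletal muscle markers, Myh1 and Myh4 were at 0 in all libraries and Actn3 reached at most 0.363 FPKM. The other marker, Ckm, which heart muscle also expresses, was at 93.8, 140.3 and 258.5 FPKM in VO, 259.6 to 297.7 in Sham and 213.1 to 278.1 in CsA. Ddx3y, a gene of the Y chromosome, read 18.6 FPKM in Sham 2 and 0 in every other library. In bulk tissue, fewer cells of a type and less RNA per cell cannot be told apart, and the part that cell makeup or sex played in the values below was not tested.

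Of the 25 members, 22 were tested. Their mean levels over the 9 libraries ran from 1.19 FPKM for Timm10b and 1.98 for Tomm40l to 52.9 for Tomm22, 53.2 for Tomm5 and 81.5 for Timm8b. The tested members had a median transcript GC of 49.4%, the same as all tested genes (49.4%), and a median gene length of 2862 bases against 3991. The other 3 were hardly read. Tomm20l, a paralog of the Tom20 receptor gene, had 0 to 2 fragments per library, and Timm8a2, a paralog of the Timm8a1 chaperone gene, had 1 fragment, in VO 2. Tomm6, a small subunit that stabilises the TOM core, had 0, 2 and 3 fragments in Sham, 1, 0 and 24 in VO and 1, 0 and 1 in CsA. VO 3 alone was above 3 fragments, and Tomm6 overlaps Gm21981 on its own strand and Usp49 and Tomm6os on the other, so its level is uncertain.

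**Figure D1:**
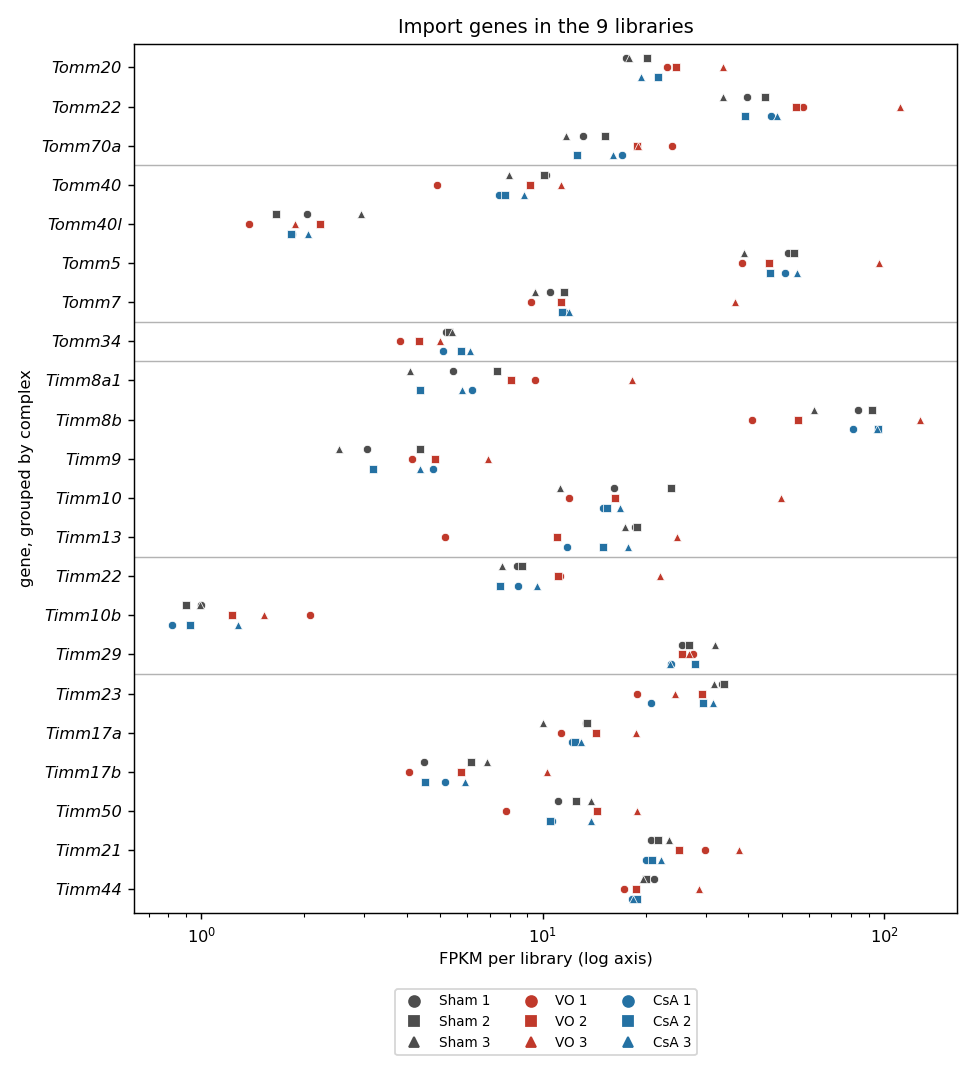
FPKM (log axis) of the 22 tested import genes in each of the 9 libraries; colour gives the group, and circle, square and triangle give library 1, 2 and 3 of that group, with gray lines between complexes. VO 3 (red triangle) is the highest library for 16 of the 22 genes.

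In volume overload against sham, the 3 receptors of the outer membrane complex (Tomm20, Tomm22 and Tomm70a), the chaperone Timm8a1 and the carrier translocase Timm22 stood higher, by fitted folds of 1.43 to 1.88, and the TIM23 channel gene Timm23 stood lower, at 0.727 times. None of these passed the test. Over all genes 4.76% (642 of 13477) passed in this comparison, and among the members limma called 0 of 22. At an unadjusted p under 0.05 there were 9 of 22 members and 3949 of all genes, while voom, run on recovered fragments, called 0 members and 946 genes. The fitted change was above 0 for 15 members and below 0 for 7, with a median of 0.21 on the log2 scale against 0.003 over all genes. Without VO 3 it was above 0 for 9 and below 0 for 13, with a median of -0.12. The median was 0.39 without VO 1, 0.12 without Sham 3 and 0.07 without the 3 libraries high in the atrial gene Myl7. VO 3 was the highest of the 9 libraries for 16 of 22 members and for 27.3% of all tested genes. VO 1 was the lowest for 11 of 22 members. The share of all genes lowest in VO 1 was not computed, so this count cannot be called particular to the members.

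The groups' libraries did not overlap for 9 members. VO was wholly above Sham for 7 of 22 (31.8%, against 16.2% of all tested genes): Tomm20, Tomm22, Tomm70a, Timm8a1, Timm22, Timm10b and Timm21. It was wholly below for 2 (9.09%, against 17% of all genes): Tomm34 and Timm23.

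**Figure D2:**
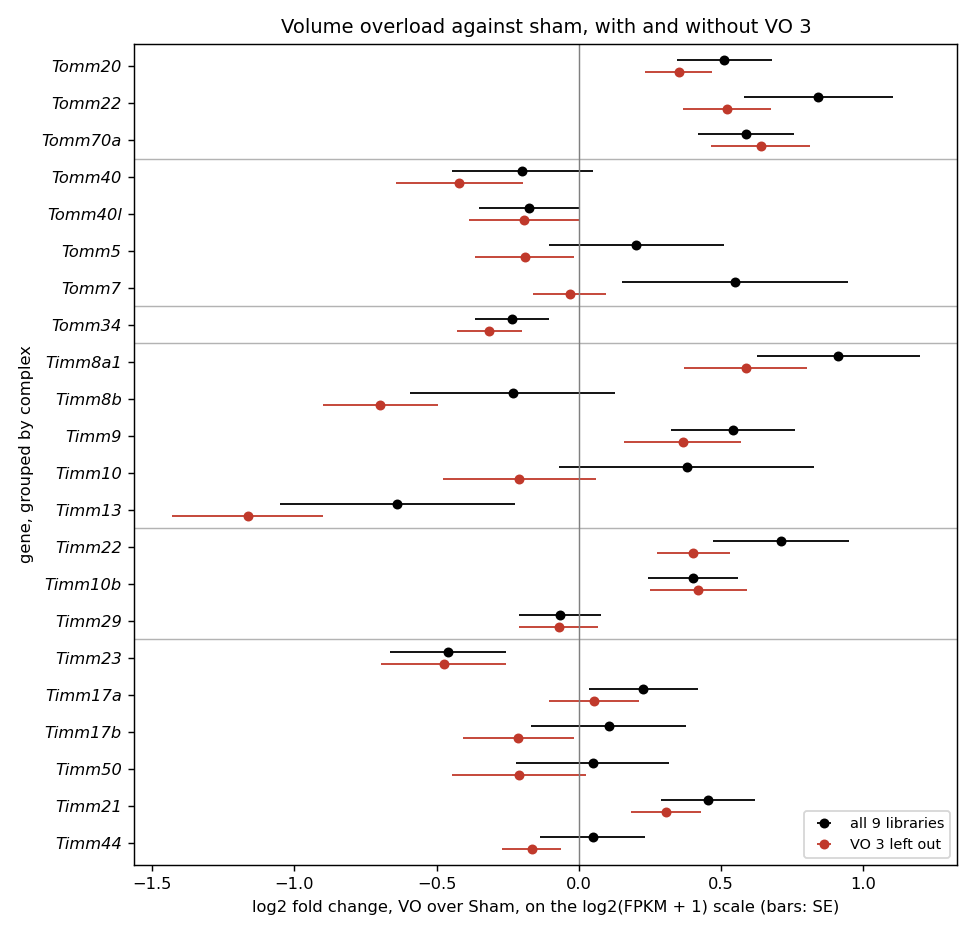
Log2 fold change of VO over Sham (x axis, on the log2(FPKM + 1) scale, bars are the SE) for each tested import gene, with all 9 libraries (black) and with VO 3 left out (red). The 3 receptors are above 0 in both fits, while Tomm5, Tomm7, Timm10, Timm17b, Timm50 and Timm44 go from above to below 0 without VO 3.

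Tomm22, the central receptor that also organises the TOM complex (ENSMUSG00000022427, chromosome 15, 79670861 to 79673400), was at 39.6, 44.8 and 33.6 FPKM in Sham, 57.8, 55.2 and 110.9 in VO and 46.7, 39.1 and 48.5 in CsA. All VO libraries lay above all Sham and CsA libraries, with VO 3 far above the other two. Its log2 fold change in VO against Sham was 0.84 ± 0.26 (SE; limma adjusted p = 0.0773; 95% interval 0.25 to 1.43). Without VO 3 it was 0.52 ± 0.15 (limma adjusted p = 0.0541).

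Tomm70a encodes the receptor for carriers and other proteins handed over by cytosolic chaperones (ENSMUSG00000022752, chromosome 16, 57121703 to 57156705). Its transcript stood at 13.1, 15.2 and 11.7 FPKM in Sham, 23.9, 18.8 and 19 in VO and 17, 12.6 and 16 in CsA. Here VO 1 was the highest library, and VO 2 and VO 3 were close together. Its log2 fold change was 0.59 ± 0.17 (limma adjusted p = 0.0656) with all libraries, and without VO 3 it passed the test at 0.64 ± 0.17 (limma adjusted p = 0.0455). Without VO 3 and with the GC correction described below it was 0.26 ± 0.12 (limma adjusted p = 0.227). Nit2, at a mean of 7.12 FPKM, overlaps it on the opposite strand, and no source used here says if reads were counted by strand.

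Tomm20 encodes the main presequence receptor (ENSMUSG00000093904, chromosome 8, 126930667 to 126945844). It stood at 17.5, 20.2 and 17.9 FPKM in Sham, 23.1, 24.5 and 33.7 in VO and 21.7, 21.8 and 19.4 in CsA. Each VO library was above each Sham and CsA library, and the log2 fold change in VO against Sham was 0.51 ± 0.17 (limma adjusted p = 0.0860). The value is uncertain because the processed pseudogene Gm14494 is 99.5% identical to the Tomm20 transcript over 435 bases. Gm14494 was listed at 20.2, 26 and 21.1 FPKM in Sham, 38.4, 28.2 and 53.6 in VO and 23.5, 29.2 and 25.7 in CsA, a mean of 29.5 against 22.2 for Tomm20 itself.

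The channel gene Tomm40 overlapped between the groups, unlike the 3 receptors. Its level was 10.2, 10.1 and 7.93 FPKM in Sham, 4.91, 9.19 and 11.3 in VO and 7.45, 7.72 and 8.79 in CsA, with VO 1 the lowest and VO 3 the highest library. The log2 fold change in VO against Sham was -0.20 ± 0.25 (limma adjusted p = 0.627; 95% interval -0.75 to 0.35), and without VO 1 it was 0.11 ± 0.16. Tomm40l, a second channel gene, lay between 1.38 and 2.93 FPKM, with a fitted log2 change of -0.18 ± 0.18 (limma adjusted p = 0.542). The small subunits that hold the TOM channel together, Tomm5 and Tomm7, owed their positive estimates to 1 library: Tomm7 was at 10.5, 11.5 and 9.47 FPKM in Sham and at 9.20, 11.3 and 36.5 in VO. Tomm5 likewise read 38.3, 45.9 and 96.2 FPKM across the VO libraries, against 52.3, 54.4 and 38.8 in Sham. With VO 3 the log2 fold changes of Tomm7 and Tomm5 were 0.55 ± 0.40 and 0.20 ± 0.31, and without it -0.03 ± 0.13 and -0.19 ± 0.17.

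Within a library, the ratio of receptor to channel transcript does not depend on library scaling. It can still carry a GC effect of the library, and no ratio was corrected for GC. Transcript GC was 40.7% for Tomm70a, 45.1% for Tomm20 and 45.8% for Tomm22, against 54.1% for Tomm40. In all, 5 ratios of this kind were computed here and below; they were chosen after the values were seen and were not tested. The Tomm22 to Tomm40 ratio of FPKM was 3.87, 4.42 and 4.23 in Sham, 11.8, 6.00 and 9.82 in VO and 6.27, 5.07 and 5.52 in CsA. Both VO and CsA lay wholly above Sham, and VO and CsA overlapped. The Tomm70a to Tomm40 ratio gave the same order, at 1.28, 1.5 and 1.48 in Sham, 4.86, 2.05 and 1.68 in VO and 2.28, 1.63 and 1.81 in CsA. For Tomm20 to Tomm40, VO (2.67 to 4.71) lay above Sham (1.71 to 2.25), and CsA (2.21 to 2.92) overlapped both.

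**Figure D3:**
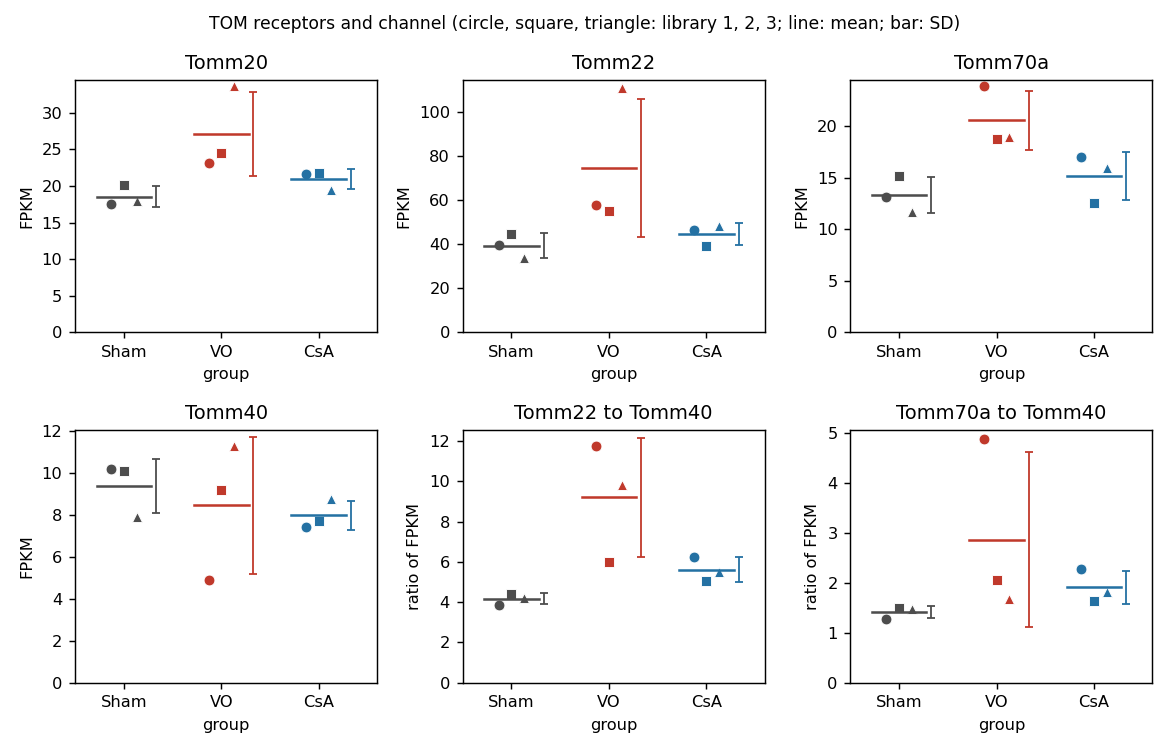
FPKM of Tomm20, Tomm22, Tomm70a and Tomm40, and the within-library ratios of Tomm22 and Tomm70a to Tomm40 (y axes from 0), by group; points are libraries 1 to 3 (circle, square, triangle), the line is the mean and the bar the SD of 3. The 3 receptors are higher in every VO library than in any Sham library, and Tomm40 overlaps.

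Tomm34 is a cytosolic co-chaperone that binds Hsp70 and Hsp90 and helps preproteins stay unfolded. It was at 5.19, 5.32 and 5.41 FPKM in Sham, 3.82, 4.34 and 4.98 in VO and 5.10, 5.74 and 6.11 in CsA. The VO libraries were below all libraries of both other groups. The log2 fold change in VO against Sham was -0.23 ± 0.13 (limma adjusted p = 0.259), and 0.02 ± 0.10 after the GC correction described below. Stk4, at a mean of 5.69 FPKM, overlaps it on the opposite strand.

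The small Tim chaperones of the intermembrane space did not share a direction. Timm8a1, the partner of Timm13 and the mouse counterpart of the gene mutated in human deafness-dystonia syndrome (ENSMUSG00000048007, chromosome X, 134537256 to 134541865), was at 5.45, 7.34 and 4.07 FPKM in Sham, 9.45, 8.07 and 18.2 in VO and 6.19, 4.38 and 5.79 in CsA. VO lay wholly above Sham and CsA, with VO 3 far above VO 1 and VO 2. The log2 fold change in VO against Sham, 0.91 ± 0.29 (limma adjusted p = 0.0795), was the largest in size among the members. Without VO 3 it was 0.59 ± 0.22 (limma adjusted p = 0.0897). A transcribed processed pseudogene, Gm9797, is 100% identical to the Timm8a1 transcript over 612 bases and was listed at a mean of 0.354 FPKM. Timm8a1 is X-linked, and Sham 2, the library with Ddx3y, had the highest Sham value. Of the autosomal members, Tomm20, Tomm22, Tomm70a, Tomm5, Tomm7, Timm8b, Timm9, Timm10, Timm13, Timm22, Timm23 and Timm17a had their highest Sham value in Sham 2. Tomm40, Tomm40l, Tomm34, Timm10b, Timm29, Timm50, Timm21 and Timm44 had it in Sham 1 or Sham 3. Timm17b, the other X-linked member, was at 6.16 FPKM in Sham 2 and 6.88 in Sham 3. The part of sex in these values was not tested.

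Timm13 went the other way in 2 of the 3 VO libraries (ENSMUSG00000020219, chromosome 10, 80899450 to 80900969). Its level was 18.6, 18.8 and 17.4 FPKM in Sham, 5.17, 11 and 24.7 in VO and 11.8, 15 and 17.7 in CsA. VO 1 and VO 2 were the lowest of all 9 libraries and VO 3 the highest. The log2 fold change in VO against Sham was -0.64 ± 0.41 (limma adjusted p = 0.332) with all libraries, and without VO 3 it fell by 1.16 ± 0.27 on the log2 scale (limma adjusted p = 0.0360). Without VO 3, 2 of 22 members passed, Tomm70a higher and Timm13 lower, where 15.1% of all genes (2032 of 13477) passed. With VO 3 left out and a correction for GC content, 0 members and 1 of all genes passed in limma. At an unadjusted limma p under 0.05 there were 5 of 22 members, against 3432 of 13465 genes. Timm13 was at -0.72 ± 0.20 in that fit (limma adjusted p = 0.0941).

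The Timm8a1 to Timm13 ratio of FPKM was 0.293, 0.391 and 0.233 in Sham, 1.83, 0.736 and 0.735 in VO and 0.525, 0.291 and 0.328 in CsA. All VO libraries, VO 3 included, were above all Sham and CsA libraries in this ratio. Transcript GC was 48.8% for Timm8a1 and 58.2% for Timm13, and the part of GC in the ratio was not tested. Timm8b, the other partner of Timm13 and the most abundant member, was at 83.5, 92 and 62.1 FPKM in Sham, 40.9, 55.8 and 127.2 in VO and 80.8, 95.5 and 95.1 in CsA. As for Timm13, VO 1 and VO 2 were the lowest libraries and VO 3 the highest; the log2 fold change was -0.23 ± 0.36 (limma adjusted p = 0.702), and 0.11 ± 0.33 without VO 1.

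The carrier chaperones Timm9 and Timm10, which form a hexamer together, overlapped between the groups. Timm9 was at 3.06, 4.37 and 2.52 FPKM in Sham and 4.13, 4.83 and 6.91 in VO, with a fitted log2 difference of 0.54 ± 0.22 (limma adjusted p = 0.136). Timm10 was at 16.1, 23.8 and 11.2 FPKM in Sham and 11.9, 16.3 and 49.8 in VO, with a fitted log2 difference of 0.38 ± 0.45 (limma adjusted p = 0.608), which was -0.21 ± 0.27 without VO 3. The Timm9 to Timm10 ratio of FPKM was 0.190, 0.183 and 0.226 in Sham, 0.346, 0.297 and 0.139 in VO and 0.318, 0.208 and 0.259 in CsA, and overlapped in all 3 comparisons.

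**Figure D4:**
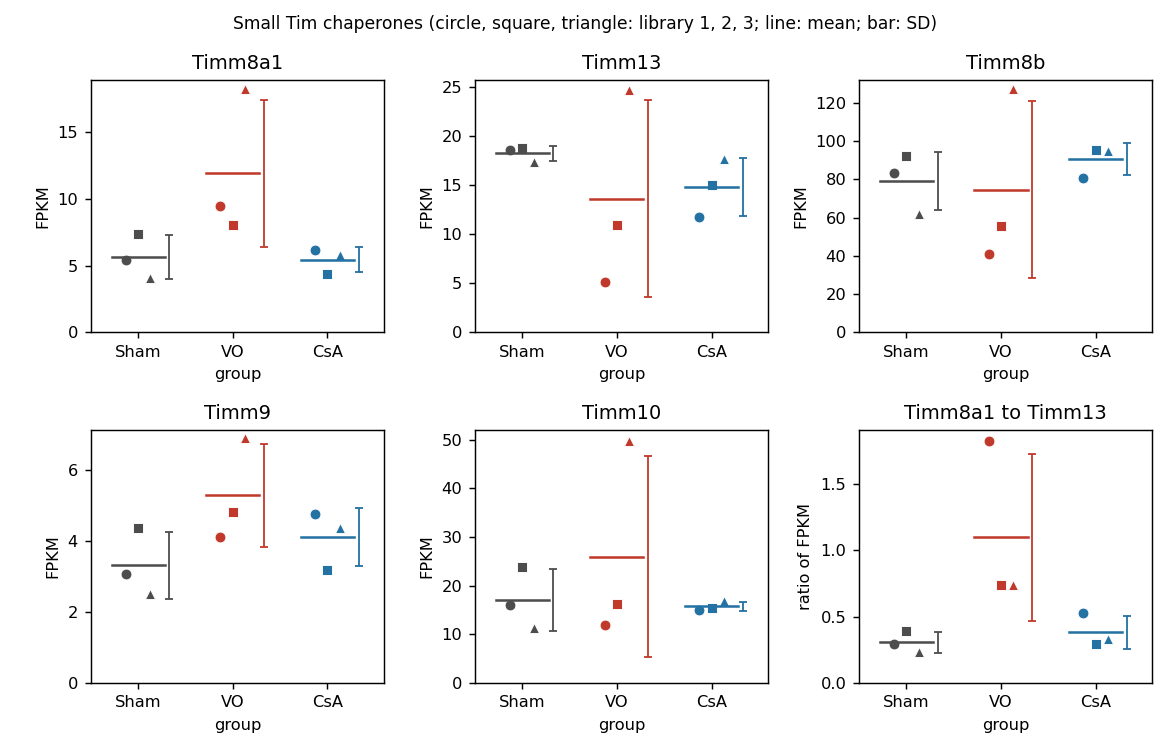
FPKM of the 5 tested small Tim chaperone genes and the within-library ratio of Timm8a1 to Timm13 (y axes from 0), by group; points are libraries 1 to 3 (circle, square, triangle), the line is the mean and the bar the SD of 3. Timm13 and Timm8b are lowest in VO 1 and VO 2 and highest in VO 3, and the ratio is higher in every VO library than elsewhere.

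In the TIM22 complex, which inserts carriers into the inner membrane, the channel gene Timm22 (chromosome 11, 76406952 to 76416292) was at 8.38, 8.68 and 7.59 FPKM in Sham, 11.2, 11.1 and 22.1 in VO and 8.43, 7.47 and 9.62 in CsA. VO lay wholly above both other groups. The log2 fold change in VO against Sham was 0.71 ± 0.24 (limma adjusted p = 0.0939), and without VO 3 it was 0.40 ± 0.13 (limma adjusted p = 0.0620). Timm10b, the small Tim bound to this complex, was low, at 0.995, 0.903 and 0.991 FPKM in Sham and 2.08, 1.23 and 1.52 in VO, with 35 to 119 fragments per library. VO was wholly above Sham, and the log2 fold change was 0.40 ± 0.16 (limma adjusted p = 0.132). Arfip2, at a mean of 3.30 FPKM, overlaps Timm10b on the opposite strand. Timm29, a subunit that links TIM22 to the outer membrane, lay between 23.6 and 31.9 FPKM in all libraries, with a fitted log2 change of -0.07 ± 0.14 (limma adjusted p = 0.801; 95% interval -0.39 to 0.26).

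In the TIM23 complex, the channel gene Timm23 (ENSMUSG00000013701, chromosome 14, 32180162 to 32201898) was at 33.4, 33.9 and 31.8 FPKM in Sham, 18.8, 29.2 and 24.3 in VO and 20.7, 29.5 and 31.4 in CsA. Sham was wholly above both fistula groups, which overlapped each other. The fitted log2 change was -0.46 ± 0.20 in VO against Sham (limma adjusted p = 0.169) and -0.29 ± 0.20 in CsA against Sham (limma adjusted p = 1). Timm23 is uncertain too: 5 near-identical copies were found, among them the gene Gm10273 at 99.9% identity over 1121 bases, and they were listed at 3.19 FPKM in all.

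Timm21, which tethers TIM23 to the TOM complex, stood at 20.7, 21.7 and 23.4 FPKM in Sham, 29.8, 25.1 and 37.6 in VO and 20, 20.9 and 22.2 in CsA. VO was wholly above both other groups, and the log2 fold change in VO against Sham was 0.45 ± 0.16 (limma adjusted p = 0.109). With VO 3 left out and the GC correction the estimate was -0.07 ± 0.11. The presequence receptor Timm50 (7.79 to 18.9 FPKM) and the motor anchor Timm44 (17.3 to 28.6 FPKM) overlapped, each with a fitted log2 change of 0.05 (limma adjusted p = 0.923 and 0.883).

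Timm17a and Timm17b are alternative channel subunits of TIM23. The processed pseudogene Gm7180, at a mean of 1.80 FPKM, is 96.3% identical to the Timm17a transcript over 516 bases. Timm17a lay between 10 and 18.7 FPKM and Timm17b between 4.05 and 10.3, with log2 fold changes in VO against Sham of 0.23 ± 0.19 and 0.10 ± 0.27 (limma adjusted p = 0.459 and 0.831). The log2 ratio of Timm17a to Timm17b was 1.09 ± 0.51 in Sham, 1.22 ± 0.32 in VO and 1.27 ± 0.17 in CsA (SD, n = 3 libraries). The log2 ratio of Tomm40 to Tomm40l was 2.13 ± 0.62, 2.16 ± 0.39 and 2.07 ± 0.05 in the same order. Exact two-sided permutation tests of these 2 ratios in the 3 comparisons gave p of 0.7 to 1, all 1 after adjustment over the 6 tests, where the smallest p for 3 against 3 is 0.1.

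GC content moved with the fold changes. The 22 tested members are not independent replicates and share the 9 libraries. Across them, GC of the longest transcript and the log2 fold change in VO against Sham had a Spearman correlation of -0.67. It was 0.54 in CsA against VO and -0.60 in CsA against Sham, so the trend was not particular to VO against Sham. These correlations are given as a description. Tomm70a, the receptor with the largest change relative to its SE, had a GC of 40.7%, and Timm13 58.2%. After a loess correction of each library on GC, the correlation in VO against Sham was -0.22. The correction takes each library's trend on GC out, so a weaker correlation follows largely from its construction. The corrected log2 fold changes were 0.71 ± 0.26 for Tomm22, 0.35 ± 0.17 for Tomm20, 0.29 ± 0.13 for Tomm70a, 0.88 ± 0.27 for Timm8a1 and 0.72 ± 0.22 for Timm22. The receptors were thus at 0.29 to 0.71 after the correction and at 0.51 to 0.84 before it, and at 0.16 to 0.37 with VO 3 left out as well. In limma, the corrected values called 0 of 22 members and 0 of 13465 genes, with 5 members and 2850 genes at an unadjusted p under 0.05; voom, on uncorrected fragments, called 0 members. The part of GC content in the differences was not tested. Under quantile normalization 6.93% of genes were called, and among the members Tomm22 alone, at 0.75 ± 0.19 (limma adjusted p = 0.0464).

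**Figure D5:**
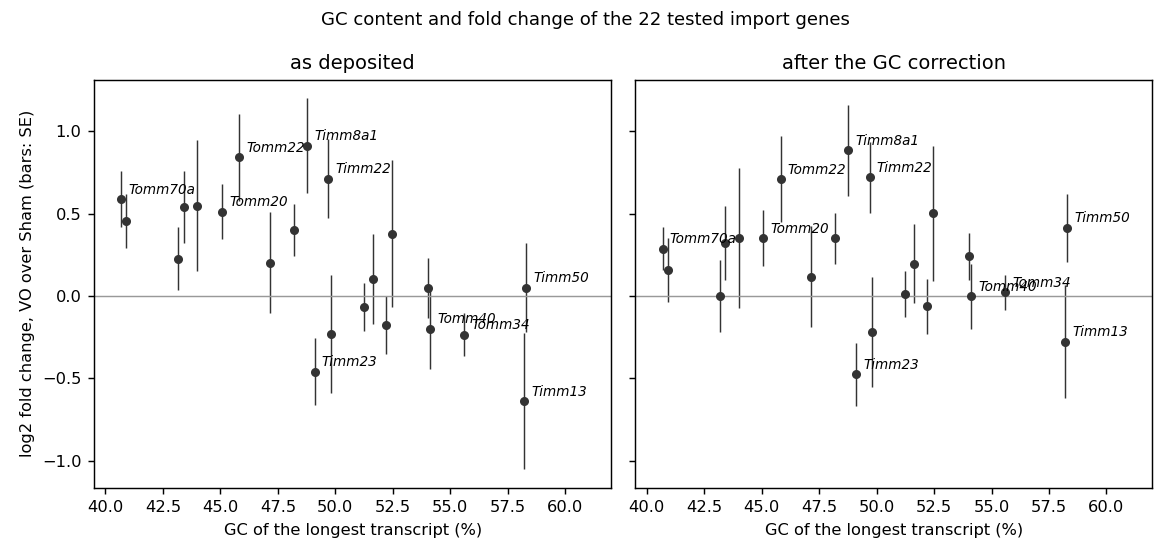
Log2 fold change of VO over Sham (y axis, bars are the SE) against GC content of the longest transcript (x axis, percent) for the 22 tested import genes, as deposited (left) and after the GC correction (right). The Spearman correlation is -0.67 on the left and -0.22 on the right, where the correction itself takes out the trend on GC.

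In CsA against VO, the same receptors and Timm8a1, Timm22 and Timm21 stood lower in the libraries of the cyclosporin-treated mice. This comparison shares the VO libraries with the previous one, so the values are given side by side and not as a second piece of evidence. Limma called 0 of 22 members and 0% of all genes; at an unadjusted p under 0.05 there were 7 members and 2219 genes, and voom called 0 of each. The fitted change was below 0 for 17 members and above 0 for 5, with a median of -0.22 against -0.001 over all genes. Without VO 3 the median was 0.05, with 12 above 0.

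CsA was wholly below VO for 6 of 22 members (27.3%, against 10.3% of all genes): Tomm20, Tomm22, Tomm70a, Timm8a1, Timm22 and Timm21. It was wholly above for 1 (4.55%, against 10.9%): Tomm34. Estimated log2 changes were -0.93 ± 0.29 for Timm8a1 and -0.67 ± 0.24 for Timm22 (limma adjusted p = 0.219 and 0.242). Those of Tomm22 and Tomm70a were -0.65 ± 0.26 and -0.42 ± 0.17 (limma adjusted p = 0.265 and 0.271). Timm21 was at -0.51 ± 0.16, Timm10b at -0.37 ± 0.16 and Tomm20 at -0.34 ± 0.17 (limma adjusted p = 0.221, 0.283 and 0.338). Tomm34 was at 0.31 ± 0.13, Timm8b at 0.44 ± 0.36 and Timm13 at 0.34 ± 0.41 (limma adjusted p = 0.283, 0.555 and 0.708). Without VO 3, Tomm22 was at -0.33 ± 0.15 and Tomm20 at -0.18 ± 0.12 (limma adjusted p = 0.231 and 0.370). In the same fit, Timm22 was at -0.36 ± 0.13 and Timm8a1 at -0.60 ± 0.22, and Timm8b and Timm13 were at 0.90 ± 0.20 and 0.86 ± 0.27 (limma adjusted p = 0.167, 0.170, 0.125 and 0.150).

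In CsA against Sham, limma called 0 of 22 members and 0% of all genes, with 0 members and 200 genes at an unadjusted p under 0.05, and voom called 0 of each. The fitted changes were above 0 for 11 and below 0 for 11, with a median of 0.004 against 0.001 over all genes. Without the 3 libraries high in Myl7, 3 were above 0 and the median was -0.11. No member was wholly higher in CsA (against 4.8% of all genes). CsA was wholly below Sham for 2 of 22 (9.09%, against 4.94% of all genes), Timm23 and Timm44. The change of Timm44 was -0.13 ± 0.18 (limma adjusted p = 1; 95% interval -0.54 to 0.28).

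Other genes of the import pathway, a list of 27 insertion, folding and processing genes, were read in the same way. In VO against Sham limma called 0 of 27, against 4.76% of all genes. At an unadjusted limma p under 0.05 there were 7 of 27, against 3949 of 13477 genes. The fitted change was above 0 for 21, with a median of 0.22. Without VO 3 it was above 0 for 10 and below 0 for 17, with a median of -0.10, and without VO 1 the median was 0.36. The 4 with the smallest p were Mtx2, Chchd4, Grpel2 and Immp1l. Mtx2, a metaxin of the outer membrane sorting machinery, was at 20.9, 23.2 and 20.9 FPKM in Sham and 32.1, 27.6 and 42.7 in VO. Chchd4, the oxidoreductase that folds the small Tim proteins, was at no more than 4.54 FPKM in Sham and at 7.23, 5.91 and 14.2 in VO. Both lay wholly above Sham, with log2 fold changes of 0.61 ± 0.18 and 0.90 ± 0.29 (limma adjusted p = 0.0675 and 0.0837). Without VO 3 they were 0.44 ± 0.13 and 0.57 ± 0.21 (limma adjusted p = 0.0544 and 0.0949), and Mtx2 was at 0.19 with the GC correction added. Without VO 2, where 5.88% of all genes were called, 2 of the 27 passed. Mtx2 passed there (0.75 ± 0.18, limma adjusted p = 0.0491) and under quantile normalization (0.54 ± 0.14, limma adjusted p = 0.0491). Grpel2, a nucleotide exchange factor of the import motor, and Immp1l, an inner membrane peptidase, were at 0.46 ± 0.15 and 0.77 ± 0.28 (limma adjusted p = 0.0900 and 0.109), and Immp1l also passed without VO 2 (1.10 ± 0.21, limma adjusted p = 0.0376). Without VO 3, Immp1l was at 0.45 ± 0.19 (limma adjusted p = 0.127), and at 0.009 with the GC correction added.

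Without VO 3, 2 of the 27 passed, beside 15.1% of all genes, and they are named because of it. Mtx3, another metaxin, was at 0.64 ± 0.18 and Romo1, a small inner membrane protein, at -1.43 ± 0.30 (limma adjusted p = 0.0470 and 0.0343). With all libraries Mtx3 was at 0.34 ± 0.25 and Romo1 at -0.68 ± 0.55 (limma adjusted p = 0.400 and 0.436). With VO 3 left out and the GC correction neither passed, at 0.32 ± 0.14 for Mtx3 and -0.88 ± 0.24 for Romo1 (limma adjusted p = 0.213 and 0.0925).

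In CsA against VO, limma called 0 of the 27, with 3 at an unadjusted p under 0.05, against 2219 of 13477 genes. Of the 27, 21 were below 0 and the median was -0.17. Without VO 3, 17 were above 0 and the median was 0.04; without VO 1 it was -0.34. Chchd4 was at -0.92 ± 0.29, Immp1l at -0.67 ± 0.28, Mtx2 at -0.48 ± 0.18 and Grpel2 at -0.31 ± 0.15 (limma adjusted p = 0.220, 0.281, 0.249 and 0.336). Without VO 3, Chchd4 was at -0.58, Immp1l at -0.35 and Mtx2 at -0.31. In CsA against Sham, limma called 0 with 0 at an unadjusted p under 0.05, against 200 of 13477 genes, and the median was -0.01. The smallest p belonged to Mtch1, Oxa1l, Grpel2 and Timmdc1, at -0.23 ± 0.20, -0.19 ± 0.18, 0.15 ± 0.15 and -0.20 ± 0.22 (limma adjusted p = 1 for each). For scale, 77 tested mitochondrial ribosomal protein genes had a median of -0.02 in VO against Sham with 1 called lower, and 37 complex I genes had a median of -0.18 with 1 called lower. Without VO 3 these medians were -0.25 with 14 called, all lower, and -0.60 with 17 called lower and 1 higher. With VO 3 left out and the GC correction they were -0.26 and -0.43, with 0 called in each. Without VO 1 they were 0.22 and 0.08, with 0 called in each.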

How the data were processed

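Per the submitters' processing notes, featureCounts 1.5.0-p3 and the aligner HISAT2 2.0.5 were among the tools, with no stated settings, and the build was GRCm38; the sources used here name no annotation release. The authors deposited FPKM per gene and library. Each value was a whole number of fragments within 0.1 (100% of values), and these fragments gave the depth and the voom alternative. Genes whose mean reached 0.5 FPKM were tested on log2(FPKM + 1) in limma 3.58.1 (R 4.3.3), all 9 libraries in 1 fit, with a mean-variance trend and no covariate. Pairs of libraries of a group differed by 11.5 to 182.7 in chi-square per degree of freedom, so none was a repeat deposit. The main fit treats the libraries as unpaired. Correlations of same-numbered libraries, given below, had no common sign and cannot exclude that the numbers pair samples. GC content came from GENCODE M21 transcripts, and near-identical copies from a search of the same transcripts (at least 95% identity over 150 bases).

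The members and lists were chosen with earlier results of these data known. Every member is accounted for, and of the other import genes those past the test, or else the 4 with the smallest p, are named. Alternatives covered the pseudocount, the filter, scaling, GC, a replicate block, voom, the groups in the fit and each library left out. The fit was also run on simulated data for VO against Sham. Log2 changes of 1 and 2 were recovered in 76% and 94% of cases, with 14 false calls. Every member's estimate with all libraries was smaller than these changes. The simulated libraries shared 1 spread, estimated without VO 3, so the result does not cover data with a library like VO 3. Figures were drawn with matplotlib 3.10.9.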

Additional observations from a re-analysis of the deposited data

How the results depend on the processing

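The members called in VO against Sham numbered 0 with all libraries, 1 under quantile normalization and 0 to 2 with each library left out in turn; under the other alternatives, and in CsA against VO and CsA against Sham under every alternative run, the count was 0. With a replicate block it was 0 in each comparison, and 1 of all genes passed in VO against Sham. The blocked fit is given for completeness, and no block could be fitted in the ratio tests. Deviations of same-numbered libraries from their group means correlated at -0.04, 0.06 and -0.04 in VO and Sham. The values were 0.24, -0.09 and 0.05 in CsA and VO, and -0.21, -0.4 and -0.25 in CsA and Sham. Such correlations can neither show nor exclude a pairing. The count over all genes in VO against Sham was 642, but 0 with no filter, with the GC correction or with only the 2 groups compared. It was 0 without VO 1, Sham 3, CsA 1 or CsA 3, 1 without Sham 1, 69 without Sham 2, 793 without VO 2, 761 without CsA 2 and 2032 without VO 3. It was 1 without VO 3 and with the GC correction, and 3 without the 3 libraries high in Myl7, which leaves 1 Sham library whose spread is assumed to equal that of the others. The cause was not tested. All 3 receptors, Timm8a1, Timm9, Timm22 and Timm10b stayed above 0 and Timm23 and Timm13 below 0 in VO against Sham under all 22 alternatives. Several of the 22 could not change these estimates, so the sign under them was fixed in advance. They are the filter settings, the replicate block, the fit of only the 2 groups and each CsA library left out. The block with the GC correction likewise repeats the estimate of the GC correction alone.

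Of 1056 single-gene estimates under an alternative, 30 changed sign. In 2 of these both values exceeded their SE (Tomm7 and Timm17a, without VO 3 and with the GC correction). The 1056 cover 48 gene and comparison pairs only, so sign changes in other pairs are not among the 30. In CsA against VO, for example, Tomm40 was above 0 under 6 and below 0 under 16 of the 22 alternatives. In CsA against Sham, Timm10 was above 0 under 4 and below 0 under 18. The 1056 include estimates that the alternative could not move, so the share that changed sign is understated. Leaving out single libraries in VO against Sham gave -0.42 to 0.11 for Tomm40, -0.19 to 0.46 for Tomm5, -0.0318 to 0.91 for Tomm7, -0.70 to 0.11 for Timm8b, -0.21 to 0.78 for Timm10, -0.13 to 0.0276 for Timm29, -0.21 to 0.37 for Timm17b, -0.21 to 0.38 for Timm50 and -0.17 to 0.18 for Timm44, and in CsA against VO -0.16 to 0.86 for Timm13. In the same way the difference in the log2 ratio of Timm17a to Timm17b ran from -0.14 to 0.38 in VO against Sham, -0.13 to 0.18 in CsA against VO and -0.0868 to 0.43 in CsA against Sham. That of Tomm40 to Tomm40l ran from -0.32 to 0.28, -0.26 to 0.13 and -0.41 to 0.18, and it was -0.0236 in VO against Sham with a pseudocount of 1. In VO against Sham the GC correction, with or without the replicate block, put Tomm34 at 0.0213 and Timm29 at 0.00933. Without VO 3 and with the GC correction, Tomm5 was at -0.28, Tomm7 at -0.27, Tomm34 at 0.0225, Timm10 at -0.0259, Timm29 at 0.0553, Timm17a at -0.23, Timm17b at -0.0675 and Timm21 at -0.0690. Without the 3 libraries high in Myl7, Tomm40l was at 0.0800 and Timm10 at -0.14. Quantile normalization put Timm44 at -0.0288, and rescaling without mitochondrially encoded genes put Timm44 at -0.0287 and Timm50 at -0.027. The cause of these sign changes was not tested. Depth limits Timm10b and Tomm40l, with as few as 35 and 113 fragments in a library.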
